A study of Mus musculus with 6 samples.

Results

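The 32 genes described here encode enzymes and scaffolds of DNA end joining, base excision repair, mismatch repair and nucleotide excision repair. They were chosen by name, not by a measured value, though with earlier results of these data known. Every gene probe whose symbol on the array was one of the 32 was taken, which gave 43 probes among 39429 gene probes for 27516 named genes. Of these genes, 23 were read by 1 probe and 9 by several. All 43 probes were well above background on all 6 arrays, so no member was lost to the filter on dim probes.

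Total RNA was profiled from mouse embryonic stem (ES) cells, which are pluripotent cells of the early embryo kept in culture, on 1-colour Agilent arrays of 60-base oligonucleotide probes. The wild type group and the group with a knockout of Zscan5b, a SCAN domain zinc finger gene, held 3 arrays each, and the labels call these biological replicates. Both genotypes were cultured with leukemia inhibitory factor on mouse embryonic fibroblasts that had been growth-arrested with mitomycin C, a DNA crosslinking agent. The comparison of the genotypes is the only one in the design. The labels do not place the deletion in the gene, name the parental line, say whether the knockout replicates are separate clones, or say whether the feeder cells were removed before extraction. P-values therefore measure the spread between these samples, which may be partly technical. In RNA from whole cultures, fewer cells of a type and less RNA per cell cannot be told apart.

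Each branch of repair works on its own kind of damage. In end joining, the Ku heterodimer caps a double-strand break, recruits the DNA-dependent kinase and hands the ends to a ligase complex, while polymerase theta joins ends through short homologies. In excision repair a damaged base, a mismatched stretch or a bulky lesion is cut out and the gap is filled and sealed, and rapidly dividing ES cells are known to express many of these factors at high levels.

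Signal is given as log2 of the scanner's processed intensity relative to the array's 75th percentile, so 0 is the 75th percentile of all gene probes on that array. Each log2 fold change is the knockout mean less the wild type mean. Errors are SE from limma, with 3 arrays per group, and adjusted p-values are Benjamini-Hochberg values over all 26649 tested probes with a threshold of 0.05. Where a gene had several probes, the brightest one stands for the gene unless another is named.

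Across the series, between 25371 and 27754 probes per array were well above background and the 75th percentile ranged from 852 to 1028 intensity units. The number of arrays, 3 against 3, limits the precision of every value. Wild type occupied 1 slide and 1 scan and the knockout another slide and scan, so slide, scan and genotype cannot be told apart in any value below. Zscan5b itself read -3.66, -4.03 and -3.12 on the wild type arrays against -4.47, -5.17 and -5.13 on the knockout arrays, a log2 fold change of -1.32 ± 0.29 with an adjusted p of 0.107. Its probe was well above background on all 6 arrays, and whether it lies in the deleted part is not stated in the sources used here. The 12 ES cell markers averaged between 3.66 and 3.82 on every array, with 6 of 12 negative and 0 called. Single markers differed in both directions, with log2 fold changes from -0.49 (Utf1) and -0.47 (Pou5f1) to 0.56 (Klf4) and 0.66 (Nanog). The 16 feeder fibroblast markers averaged 0.04, 1.96 and 1.57 on the wild type arrays against 0.00, 0.55 and 0.15 on the knockout arrays, with 15 of 16 negative and all 16 well above background on every array. The 8 tested of 11 differentiated lineage markers averaged -2.96, -3.18 and -3.15 on the wild type arrays against -2.46, -2.40 and -2.11 on the knockout arrays. The part of either marker list in the repair gene values was not tested.

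None of the repair genes passed the test. Over the 43 probes, 0 were called higher and 0 lower, and adjusted p-values ran from 0.128 to 0.983. Over all tested probes, 0.124% were called higher and 0.341% lower (33 and 91 probes), so a list of 43 probes would seldom hold a called probe at that rate. At an unadjusted p below 0.05, 2 member probes were higher and 9 lower, beside 10.6% and 11.3% of all tested probes. The groups did not overlap at 3 member probes that read higher in the knockout and at 10 that read lower, beside 13.6% and 15.4% of all tested probes.

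Counted by gene, none of the 32 was called, beside 0.0946% higher and 0.368% lower of all 19027 genes. At an unadjusted p below 0.05, 1 of the 32 read higher and 9 lower, beside 9.54% and 12.1% of all genes. The groups did not overlap for 1 gene that read higher (Neil3) and for 10 that read lower, beside 12.4% and 16.4% of all genes. The fold change was negative for 20 of the 32, or 62.5%, against 53.6% of all genes. This comparison is not matched for signal: 23 of the 32 lay above the 75th percentile, beside 7752 of the 19027 genes. Among all probes in 5 equal bins of mean signal, 53.5% of the second brightest bin and 72.5% of the brightest were negative. The median over the 32 was -0.09 and that over all genes was -0.03. The gap in medians was smaller when a gene's tested probes were averaged, with medians of -0.028 and -0.012. The share of negative values was then 59.4% of the 32 (19 genes), beside 51.6% of all genes. Single values ran from -0.61 (Ercc4) to 0.48 (Neil3), none exceeded 1 in size, and 2 exceeded 0.5.

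**Figure D1:**
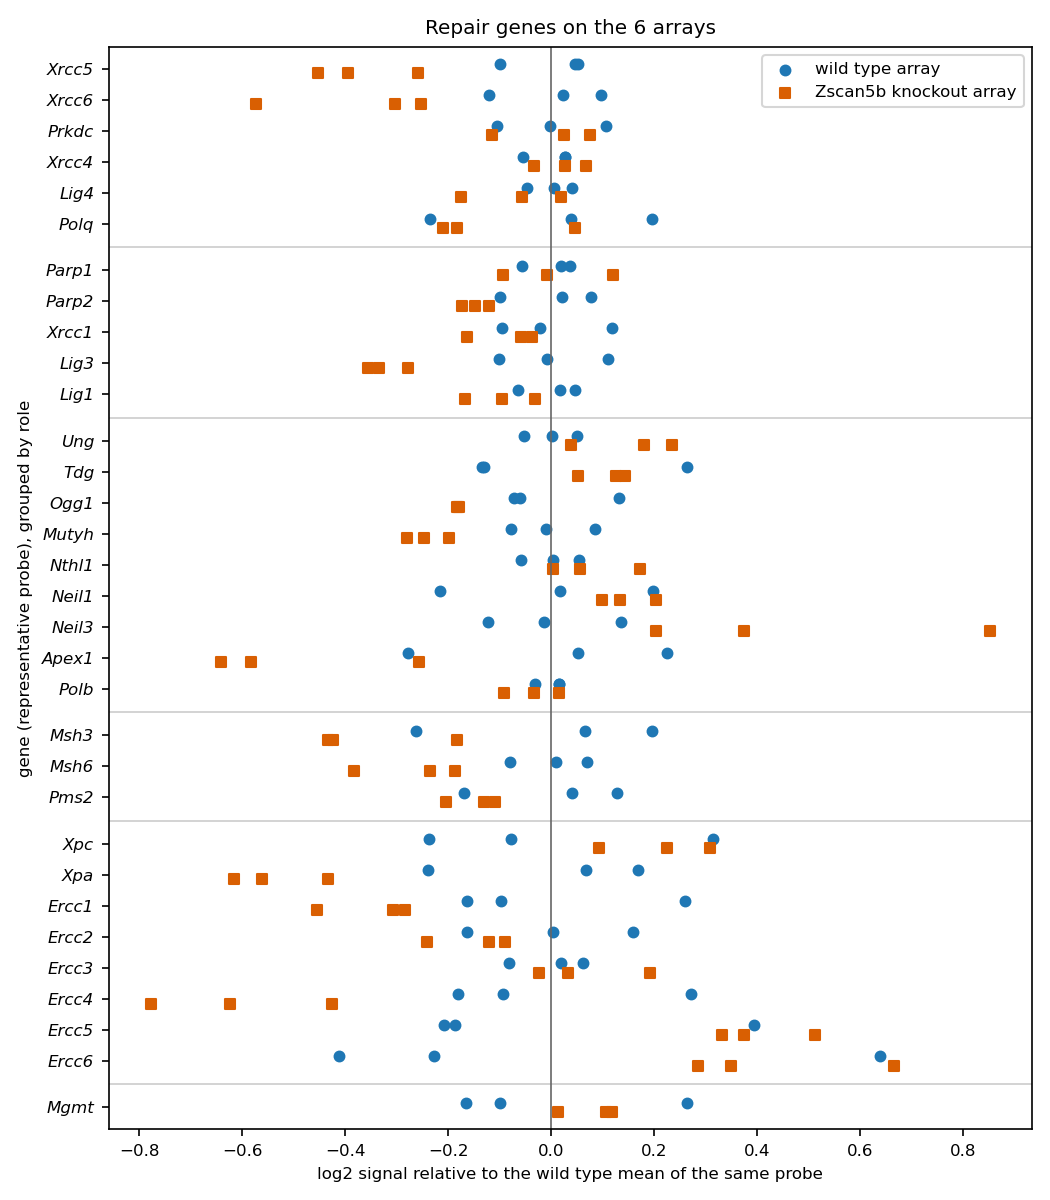
Signal of each repair gene on the 6 arrays, as log2 signal of its brightest probe relative to the wild type mean of that probe (horizontal axis), with genes by role from end joining at the top to direct reversal at the bottom. Circles are wild type arrays and squares knockout arrays; the lowest knockout means are those of Ercc4 and Xpa, and Neil3 is the only gene whose knockout arrays all lie to the right of all its wild type arrays.

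End joining was represented by 6 genes, of which 2 read lower at an unadjusted p below 0.05, 5 of 6 fold changes were negative and the median was -0.09. Both genes were the Ku subunits. Xrcc5 encodes Ku80, the larger subunit of the ring that threads onto a broken end, and its probe spans an intron at chr1:72430014-72430320 on the plus strand of mouse build mm9. It read 3.33, 3.18 and 3.34 on the wild type arrays against 3.03, 2.89 and 2.83 on the knockout arrays. All knockout arrays lay below all wild type arrays, and the log2 fold change was -0.37 ± 0.11 (adjusted p = 0.149 by limma).

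Xrcc6 encodes Ku70, the partner of Ku80, and was read at chr15:81870452-81870511 (plus strand, mm9). Its signals were 4.31, 4.09 and 4.23 on the wild type arrays against 3.91, 3.96 and 3.64 on the knockout arrays, again with no overlap. This gave a log2 fold change of -0.38 ± 0.13 (adjusted p = 0.184 by limma). Each Ku subunit thus read about 1.3-fold lower in the knockout arrays (1.29-fold for Xrcc5 and 1.3-fold for Xrcc6), and neither passed the threshold. Over the 16 alternatives the fold change ran from -0.42 to -0.25 for Xrcc5 and from -0.44 to -0.26 for Xrcc6. Both probes lie in the brightest of 5 equal bins of signal, where the median of all probes was -0.12.

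The other end joining genes stayed close to 0, with narrow intervals for most. Prkdc encodes the catalytic subunit of the DNA-dependent kinase that Ku recruits. Its 6 arrays spanned 0.22, and its fold change had a 95% interval from -0.27 to 0.26. Xrcc4, the scaffold of the end joining ligase, averaged -0.94 ± 0.05 (SD, n = 3) in wild type and -0.92 ± 0.05 in the knockout, with an interval from -0.20 to 0.25. Lig4, the ligase bound to Xrcc4, averaged -0.50 ± 0.04 and -0.57 ± 0.10, with an interval from -0.31 to 0.17. All 3 intervals overlap those of Xrcc5 (-0.63 to -0.11) and Xrcc6 (-0.69 to -0.06), although they do not reach either estimate. No difference between these genes was tested.

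Polq encodes polymerase theta, which joins ends through microhomology when the Ku route is not used. Its brighter probe averaged -1.22 ± 0.22 (SD) in wild type and -1.33 ± 0.14 in the knockout, a log2 fold change of -0.12 with an interval from -0.47 to 0.24. Its dimmer probe lies 77.9 kb away and read -2.61, -1.75 and -2.65 on the wild type arrays against -2.09, -1.99 and -1.96 on the knockout arrays. At that probe wild type replicate 2 was the highest of the 6 arrays and the other wild type arrays were the lowest.

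The 5 genes of single-strand break repair and ligation had a median of -0.10, with 4 of 5 negative and 1 lower at an unadjusted p below 0.05. That gene was Lig3, which seals nicks in short-patch repair and is the DNA ligase of mitochondria. It was read by a pair of probes 4.03 kb apart whose fold changes had opposite signs, so the last 30 bases of each probe are printed, with the polyadenylation signal letters AATAAA in capitals where present.

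Lig3, brighter probe: tttcatttggtttaacAATAAAgttgtttg
Lig3, dimmer probe: agctactgatgagaccccatgcctgaaaaa

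The brighter probe, at chr11:82617710-82617769 (plus strand, mm9), holds AATAAA. It starts at base 5878 of the RefSeq transcript named in the file, whereas the dimmer one starts at base 2890 of the same transcript. The letters AATAAA occurred in 4 of the 43 member probes (9.30%) and in 12.6% of all gene probes. The brighter probe read 0.76, 0.54 and 0.64 on the wild type arrays against 0.29, 0.37 and 0.31 on the knockout arrays, all knockout arrays below all wild type arrays. Its log2 fold change was -0.32 ± 0.10 (adjusted p = 0.166 by limma).

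The dimmer Lig3 probe, at chr11:82613739-82613798, separated the groups the other way. It read -1.33, -1.34 and -1.23 on the wild type arrays against -1.14, -1.02 and -0.96 on the knockout arrays, for a log2 fold change of 0.26 ± 0.10 (adjusted p = 0.211 by limma). Lig3 was the only member with an unadjusted p below 0.05 in opposite directions at its probes, and no direction is therefore given for the gene. The counts by gene above hold it as lower, since they take its brighter probe alone.

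The remaining genes of this group differed little. Xrcc1, the scaffold that holds Lig3 and polymerase beta at a nick, had a log2 fold change of -0.09 (interval -0.34 to 0.17). Parp1, which senses strand breaks and builds poly(ADP-ribose), averaged 3.00 in both groups, with an interval from -0.24 to 0.26. Parp2, a second break-sensing polymerase, averaged 0.77 ± 0.09 (SD) in wild type and 0.62 ± 0.03 in the knockout. All its knockout arrays lay below all wild type arrays, by a log2 fold change of -0.15 ± 0.10 (adjusted p = 0.393 by limma). Lig1, the replicative ligase that also seals long-patch repair, averaged 5.10 ± 0.06 and 5.0 ± 0.07, with an interval from -0.33 to 0.14.

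Base excision repair was represented by 9 genes, 7 of them encoding glycosylases that cut out a damaged or mispaired base. It was the one group of several genes with a positive median (0.08): 5 of 9 fold changes were positive. These 5 include Ung (0.15), whose value is not read below as the level of Ung, and the median without it was not computed. At an unadjusted p below 0.05, Neil3 read higher and Mutyh and Apex1 lower. Neil3 encodes a glycosylase for oxidised bases that also unhooks some interstrand crosslinks. It was read at chr8:54672466-54672525 (minus strand, mm9), with -2.39, -2.25 and -2.50 on the wild type arrays against -2.18, -2.01 and -1.53 on the knockout arrays. The groups did not overlap, although the nearest arrays differed by little and knockout replicate 3 lay well above the rest. The log2 fold change was 0.48 ± 0.19, a 1.39-fold higher signal (adjusted p = 0.217 by limma). It was 0.29 without knockout replicate 3, and also 0.29 with normexp background correction.

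Mutyh, the glycosylase that removes adenine paired with 8-oxoguanine, read 1.97, 1.80 and 1.87 on the wild type arrays against 1.6, 1.63 and 1.68 on the knockout arrays at chr4:116491926-116491985 (plus strand, mm9). The groups did not overlap, and the log2 fold change was -0.24 ± 0.10 (adjusted p = 0.221 by limma). Another probe lies 1.59 kb away and crosses an intron, and it gave -0.10 with overlapping groups. Ogg1, the glycosylase that removes 8-oxoguanine itself, averaged 0.43 ± 0.11 (SD) and 0.25 ± 0.00, with no overlap and a log2 fold change of -0.18 ± 0.10 (adjusted p = 0.333 by limma).

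Apex1 encodes the endonuclease that nicks the backbone at the abasic sites that glycosylases leave. At chr14:51546483-51546542 (plus strand, mm9) it read 4.11, 3.78 and 4.29 on the wild type arrays against 3.81, 3.42 and 3.48 on the knockout arrays. Wild type replicate 2 lay just below knockout replicate 1, so the groups overlapped. This gave a log2 fold change of -0.49 ± 0.18, a 1.41-fold lower signal (adjusted p = 0.192 by limma). Polb encodes polymerase beta, which fills the gap that Apex1 opens. It averaged 0.20 ± 0.03 (SD) in wild type and 0.16 ± 0.05 in the knockout, with an interval from -0.26 to 0.18. The Apex1 interval, from -0.92 to -0.07, overlaps that of Polb, and the difference between these genes was not tested.

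The remaining glycosylases did not separate by genotype at their brighter probes. Tdg, which removes thymine or oxidised methylcytosine opposite guanine and takes part in DNA demethylation, gave 0.11, -0.02 and 0.02 at its 3 probes. Nthl1, which acts on oxidised pyrimidines, gave 0.08 with an interval from -0.16 to 0.32. Neil1, which acts on oxidised bases in single-stranded DNA as well, gave 0.15 at its brighter probe. Its dimmer probe averaged -3.64 ± 0.22 (SD) in wild type and -3.33 ± 0.03 in the knockout, with no overlap and a log2 fold change of 0.31 ± 0.13 (adjusted p = 0.236 by limma).

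Ung, the glycosylase that removes uracil, was read by 1 probe at chr5:114588731-114588790 (plus strand, mm9). It is shown because 34 of its 60 bases form an uninterrupted guanine-thymine repeat. Bases 17 to 46 of the probe are printed, with the first 20 bases of the repeat in capitals.

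Ung: agatttcaaaGTGTGTGTGTGTGTGTGTGT

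The probe read 5.67, 5.62 and 5.56 on the wild type arrays against 5.80, 5.65 and 5.85 on the knockout arrays, with overlapping groups and a log2 fold change of 0.15 (interval -0.09 to 0.40). On this array 52 gene probes, named for 52 genes, carried such a repeat of at least 20 bases. All 52 were well above background on all 6 arrays, with signals from 2.26 to 7.12 and a median of 5.66. The median of all gene probes was -3.87, and 61.4% of them were well above background on all arrays. The 24 probes with a cytosine-adenine repeat of that length had a median of 0.28. The Ung probe lay near the middle of the first group, with 23 of those probes brighter. How much of its signal came from Ung RNA was not tested, and its value is not read here as the level of Ung.

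**Figure D2:**
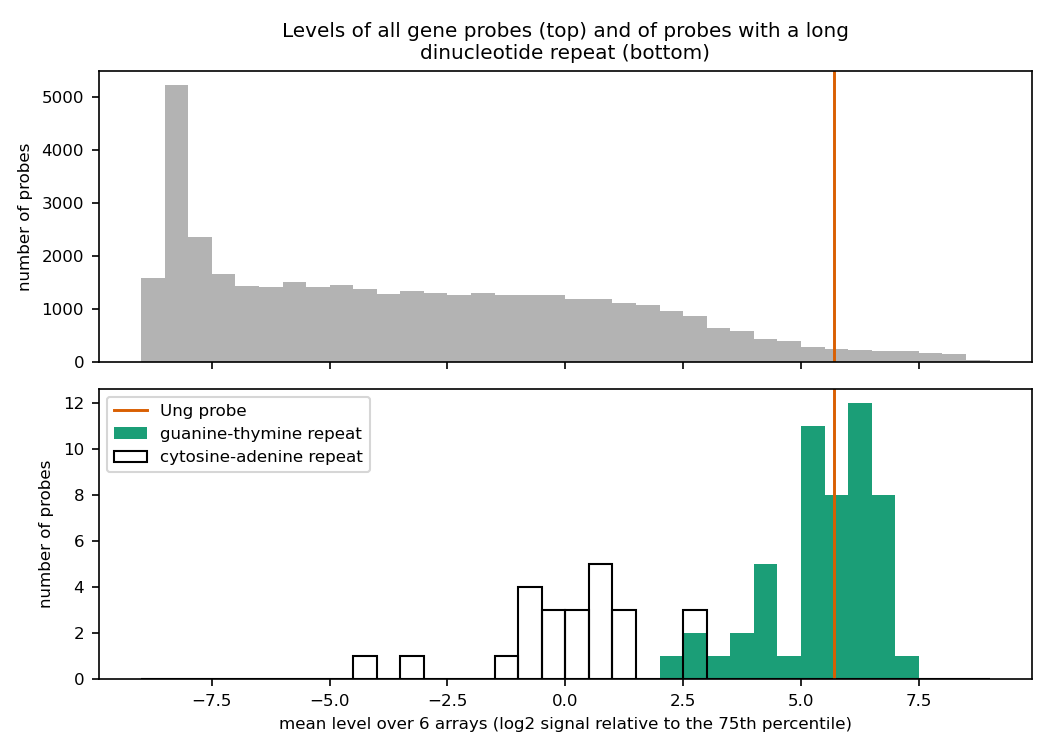
Number of probes (vertical axes) by mean signal over the 6 arrays, as log2 signal relative to the 75th percentile (horizontal axis). All gene probes are in the upper panel, probes with a repeat of at least 20 bases in the lower panel (filled, guanine-thymine; outlined, cytosine-adenine), and the vertical line marks the Ung probe; the guanine-thymine repeat probes lie between 2.26 and 7.12, around the Ung probe at 5.69.

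Mismatch repair was represented by Msh6, Msh3 and Pms2, all with negative fold changes, a median of -0.27 and 1 gene at an unadjusted p below 0.05. Msh6 encodes the subunit that recognises single mispaired bases. At chr17:88390143-88390202 (plus strand, mm9) it read 6.15, 6.0 and 6.09 on the wild type arrays against 5.89, 5.84 and 5.69 on the knockout arrays, without overlap. The log2 fold change was -0.27 ± 0.10, a 1.2-fold lower signal (adjusted p = 0.216 by limma), and it was -0.17 under quantile normalization.

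Msh3, the subunit that recognises larger insertion and deletion loops, had 3 probes along 134.8 kb. The brightest averaged 2.19 ± 0.24 (SD) in wild type and 1.84 ± 0.14 in the knockout, a log2 fold change of -0.35 ± 0.15 (adjusted p = 0.248 by limma) with overlapping groups. The dim probes gave 0.08 and 0.19, with intervals more than 1 log2 unit wide. Pms2, a subunit of the endonuclease that nicks the strand to be corrected, gave -0.15 at its brighter probe and 0.10 at its dimmer one, with overlap at both.

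Nucleotide excision repair was represented by 8 genes. Their median was -0.04, and their values had the widest range of the branches: 4 were positive and 4 negative, and the lowest value of all 32 genes (-0.61) stood beside the second highest (0.43). The 3 genes at an unadjusted p below 0.05 read lower. They encode Xpa, which verifies the lesion and positions the nucleases, and both subunits of the nuclease that cuts on its 5′ side, Ercc1 and Ercc4 (XPF). The pair Ercc1 and Ercc4 also acts in crosslink repair.

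Ercc4, at chr16:13148749-13148808 (plus strand, mm9), read 1.01, 0.92 and 1.37 on the wild type arrays against 0.67, 0.47 and 0.32 on the knockout arrays. All knockout arrays lay below all wild type arrays. This gave a log2 fold change of -0.61 ± 0.16 with an interval from -1.0 to -0.21, a 1.53-fold lower signal (adjusted p = 0.136 by limma). Ercc1, the partner without catalytic activity, read 0.23, 0.17 and 0.59 on the wild type arrays against 0.05, 0.02 and -0.12 on the knockout arrays at chr7:19935530-19935589 (plus strand, mm9). Its groups did not overlap either, although the lowest wild type array stood close to the highest knockout array. The log2 fold change was -0.35 ± 0.14 (adjusted p = 0.227 by limma), and it was -0.22 without wild type replicate 3.

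Xpa had the smallest p of the 43 probes. At chr4:46188146-46188205 (minus strand, mm9) it read 0.63, 0.32 and 0.73 on the wild type arrays against 0.13, -0.06 and 0.00 on the knockout arrays, with no overlap. This gave a log2 fold change of -0.54 ± 0.14 with an interval from -0.87 to -0.20, a 1.45-fold lower signal (adjusted p = 0.128 by limma). Another probe 9.15 kb away also gave a negative value, -0.36 ± 0.16 (adjusted p = 0.244 by limma), but there wild type replicate 2 lay within the range of the knockout arrays. With wild type replicate 2 left out, the brighter Xpa probe passed the threshold at -0.66 (adjusted p = 0.0384 by limma). With array weights, which limma estimated from how closely each array followed its group in these same data, it passed at -0.65 (adjusted p = 0.0424 by limma). Under each other alternative it did not pass. Both fits called many more probes than the main one. Without wild type replicate 2, 5.29% of all probes were called higher and 4.31% lower. With array weights the shares were 3.03% and 2.92%, and knockout replicate 2 had the highest weight (5.86) and wild type replicate 2 the lowest (0.30).

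The nuclease for the 3′ side and the transcription-coupled factor had positive values that did not pass the test. Ercc5 encodes that nuclease (XPG) and was read by a pair of probes 16.9 kb apart. Its brighter probe read -1.11, -0.53 and -1.13 on the wild type arrays against -0.59, -0.55 and -0.41 on the knockout arrays, a log2 fold change of 0.41 ± 0.19 (adjusted p = 0.256 by limma), and its dimmer probe gave 0.56 ± 0.41. Ercc6 encodes CSB, the ATPase that acts on RNA polymerase stalled at a lesion. It read -3.21, -2.16 and -3.02 on the wild type arrays against -2.45, -2.51 and -2.13 on the knockout arrays, a log2 fold change of 0.43 ± 0.29 (adjusted p = 0.397 by limma), which was 0.23 without wild type replicate 1.

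In Ercc5, Ercc6 and the dimmer Polq probe, wild type replicate 2 stood with or above the knockout arrays while the other wild type arrays lay below them all. These are the member probes that were called higher once that array was left out. Without it the log2 fold change was 0.60 for Ercc5 (adjusted p = 0.0400), 0.75 for Ercc6 (adjusted p = 0.0468) and 0.62 for the Polq probe (adjusted p = 0.0382), all by limma. In the same fit 5.29% of all probes were called higher and 4.31% lower. The remaining wild type group then holds 2 arrays. Wild type replicate 2 also had the highest mean of the feeder fibroblast markers (1.96), and wild type replicate 3 the next highest (1.57). The part of feeder RNA in these values was not tested.

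**Figure D3:**
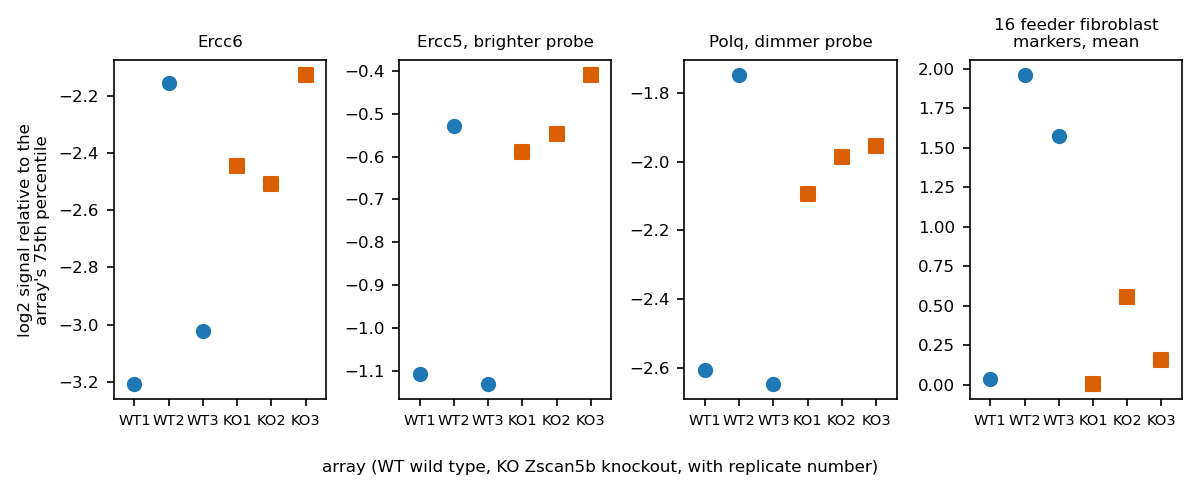
Log2 signal relative to the array's 75th percentile (vertical axes, each panel on its own scale) on each of the 6 arrays for Ercc6, the brighter Ercc5 probe, the dimmer Polq probe and the mean of 16 feeder fibroblast markers. In the repair genes wild type replicate 2 lies with or above the knockout arrays. In the feeder markers wild type replicates 2 and 3 have the highest means, 1.96 and 1.57.

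Xpc, Ercc2 and Ercc3 complete the branch. Xpc, the damage sensor of the genome-wide route, averaged 0.19 ± 0.28 (SD) in wild type and 0.40 ± 0.11 in the knockout, with an interval from -0.19 to 0.61. Ercc2 and Ercc3 encode the helicases of the transcription factor TFIIH that open the helix, and they gave -0.15 (interval -0.44 to 0.14) and 0.07 (interval -0.19 to 0.33). Mgmt is the only direct reversal enzyme among the 32 and strips alkyl groups from guanine. It averaged 2.93 ± 0.23 (SD) and 3.01 ± 0.06, with an interval from -0.26 to 0.42, and wild type replicate 2 was the highest of its 6 arrays.

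Among these genes the fold change differed between bright and dim probes of a gene. Of the 9 genes with several probes, 8 had a higher fold change at the dimmest probe than at the brightest, the exception being Tdg, and the median difference was 0.18. Among all 4970 genes with several tested probes this held for 65.3%, with a median difference of 0.09. The sign itself differed between the brightest and the dimmest probe for 4 of the 9 (Lig3, Msh3, Pms2 and Polq), beside 32.6% of all such genes.

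**Figure D4:**
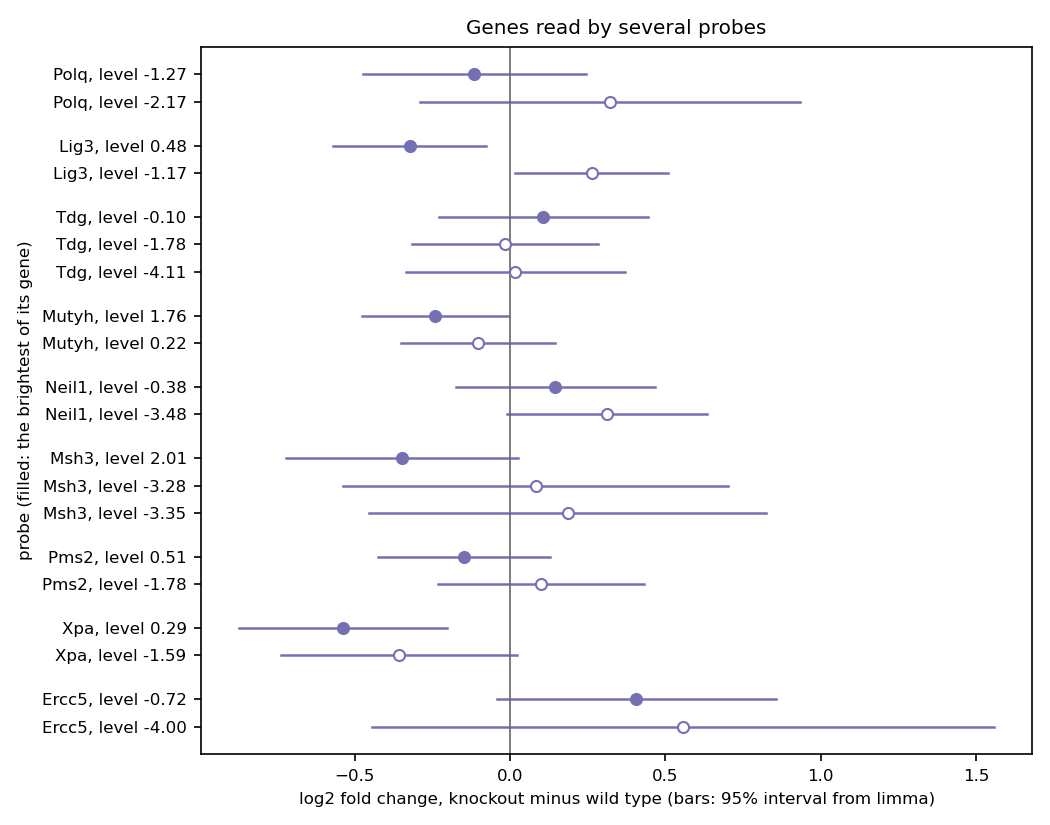
Log2 fold change, knockout minus wild type (horizontal axis), of every probe of the 9 repair genes read by several probes, with 95% intervals from limma (n = 3 arrays per group). Filled points are the brightest probe of a gene and open points the others; Lig3 is the only gene whose intervals lie on opposite sides of 0.

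With all tested probes divided into 5 equal bins of mean signal, the 6 member probes of the second dimmest bin were all positive, with a median of 0.25. The next bin held 11, of which 7 were positive (median 0.10). The bin above it held 16, of which 4 were positive (median -0.15), and the brightest held 10, of which 3 were positive (median -0.18). All probes of the series leaned in the same sense: their medians in those 4 bins were 0.08, 0.06, -0.03 and -0.12, and 72.5% of the brightest bin was negative. Under quantile normalization, which gives every array the same distribution of signal, the medians of all probes in the 5 bins lay between -0.01 and 0.01. Medians this small are largely set by that method and do not bear on the lean. With quantile normalization the dimmest probe was the higher one in 8 of the 9 repair genes, beside 59.5% of all genes. With normexp background correction it was the higher one in 7 of the 9, beside 60.8%. No cause of the lean was tested.

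**Figure D5:**
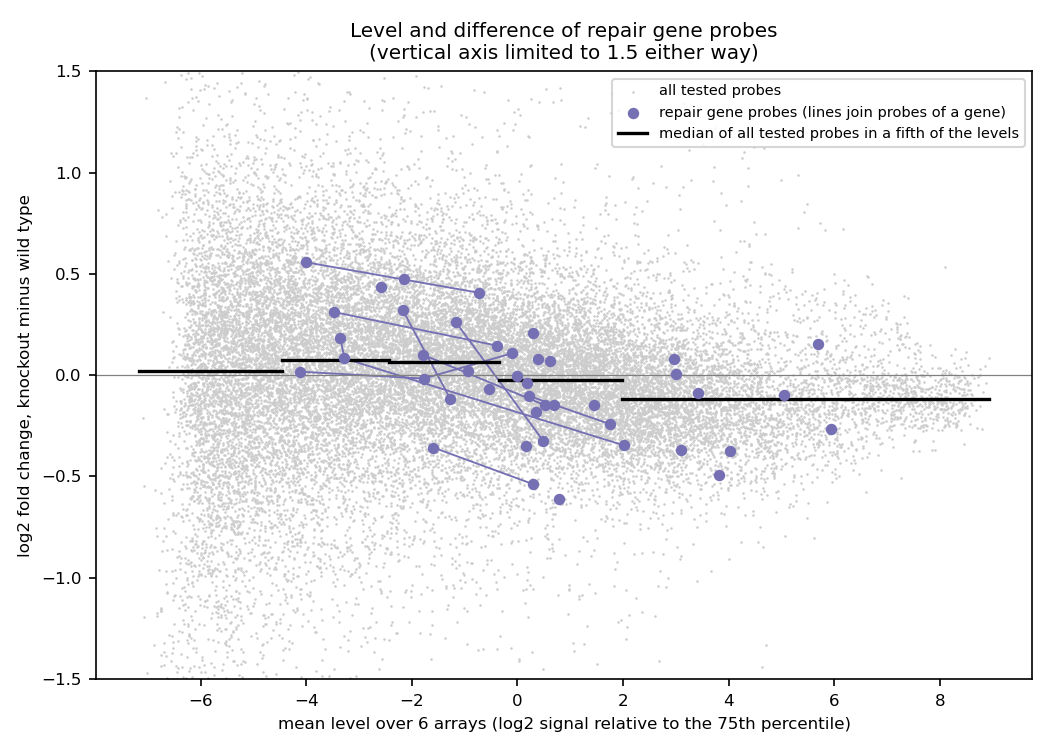
Log2 fold change, knockout minus wild type (vertical axis, limited to 1.5 either way), against the mean log2 signal over the 6 arrays relative to the 75th percentile (horizontal axis). Grey dots are all tested probes, large points the 43 repair gene probes with lines joining probes of a gene, and bars the median of all tested probes in each of 5 bins of signal, from 0.08 in the second dimmest bin to -0.12 in the brightest.

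The wild type arrays spread more widely than the knockout arrays in most of these genes, as they did in general, but not in every branch. The wild type arrays had a median SD of 0.11 and the knockout arrays one of 0.09, and the SD was larger in wild type for 20 of 32 genes (62.5%), beside 73.6% of all genes. In the nucleotide excision genes the SD was larger in wild type for 7 of 8, with a median of 0.23 against 0.10. In end joining it was larger in wild type for only 2 of 6, with medians of 0.096 and 0.099. The counts were 5 of 9 in base excision, 3 of 5 in single-strand break repair and ligation, and 2 of 3 in mismatch repair.

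Partners of these genes in the same branches were counted in the same way. Of 61 further repair genes listed by role, 60 were on the array and all 60 were tested; Uvssa was not matched by name. None was called in either direction. At an unadjusted p below 0.05, 2 were higher and 9 lower, beside 9.54% and 12.1% of all genes. Their median was -0.12, and 45 of 60 were negative (75%), beside 53.6% of all genes. Of the 60, 45 lay above the 75th percentile of signal, and among all probes 53.5% of the second brightest bin of signal and 72.5% of the brightest were negative. The groups did not overlap for 3 that read higher and 17 that read lower, against 12.4% and 16.4% of all genes.

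The smallest p of the partners was that of Parp3, a poly(ADP-ribose) polymerase of break repair. It read -4.71, -4.60 and -4.12 on the wild type arrays against -5.65, -5.73 and -5.58 on the knockout arrays, with no overlap. Its log2 fold change of -1.18 ± 0.17 was larger in size than that of any of the 32 genes, and it missed the threshold with an adjusted p of 0.0583 by limma. The sizes are not matched for signal: the mean of Parp3 (-5.06) lay in the dimmest of 5 equal bins of signal. The lowest representative probe of the 32 lay at -2.58. Gtf2h3 and Gtf2h5, subunits of TFIIH beside Ercc2 and Ercc3, gave -0.53 (adjusted p = 0.108 by limma) and -0.28 (adjusted p = 0.176).

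Hmgb1, a DNA-bending chromatin protein, gave -0.33 (adjusted p = 0.166 by limma). Polm, the end joining polymerase mu, gave -0.33 (adjusted p = 0.168). Aptx was the only one of these 6 partners with a positive value. It clears adenylate left by a failed ligation, and it gave 0.54 (adjusted p = 0.156).

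Position in the genome was examined because several of these genes share a start region with a neighbour. In RefSeq's table for GRCm38.p6, 28 of the 32 genes were present; Polb, Prkdc, Xpc and Ercc3 were not. Of the 28, 10 (35.7%) began within 1000 bases of a gene that runs the other way, beside 16.7% of the 10942 protein-coding genes tested on the array. The distances ran from 36 bases (Lig4 and Abhd13) to 693 bases (Xrcc1 and Pinlyp). On mm9, the probes of Ercc1 and Ercc2 lie 45.5 kb apart, and those of Apex1 and Parp2 lie 107.3 kb apart.

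Of these start regions, 3 are printed because the repair gene read lower at an unadjusted p below 0.05 and the neighbour was tested. The neighbour of Lig3, Gm11423 at 66 bases, has no value in the test, and that region is not shown. Each is the stretch between both starts on the plus strand of GRCm38.p6, from RefSeq, and capitals mark the CCAAT box (CCAAT) or the GC box (GGGCGG) on either strand.

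Apex1 and Osgep, chr14:50924894-50924948: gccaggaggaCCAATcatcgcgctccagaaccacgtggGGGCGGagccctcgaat
Xrcc6 and Desi1, chr15:82016221-82016368: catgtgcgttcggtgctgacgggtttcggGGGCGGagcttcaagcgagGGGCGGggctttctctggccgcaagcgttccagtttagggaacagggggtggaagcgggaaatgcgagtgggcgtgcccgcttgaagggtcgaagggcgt
Mutyh and Toe1, chr4:116807560-116807733: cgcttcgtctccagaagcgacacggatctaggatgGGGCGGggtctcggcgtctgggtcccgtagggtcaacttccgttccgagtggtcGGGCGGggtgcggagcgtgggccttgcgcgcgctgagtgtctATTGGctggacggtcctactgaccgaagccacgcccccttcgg

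Osgep, a tRNA-modifying enzyme that starts 55 bases from Apex1, gave a log2 fold change of -0.21 ± 0.11 (adjusted p = 0.311 by limma) with no overlap of the groups. Desi1, a peptidase of the SUMO system that starts 148 bases from Xrcc6, gave -0.07 ± 0.09. Toe1, an RNA exonuclease that starts 174 bases from Mutyh, gave -0.58 ± 0.26 (adjusted p = 0.255) with overlapping groups. Of the 8 neighbours tested, none was called, and 4 had the sign of their repair gene: Osgep, Desi1, Toe1 and Aimp2 (-0.40, beside Pms2). The opposite sign was seen for Zswim9 (0.28, beside Lig1), Abhd13 (beside Lig4), Tsc2 (beside Nthl1) and Tmem167 (beside Xrcc4).

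In the 300 bases around the first listed start, 250 before and 50 after, CCAAT on either strand occurred in 14 of the 28 repair genes (50%) and in 38.7% of the tested protein-coding genes. GGGCGG occurred in 18 (64.3%) beside 59.5%, and TATAAA in Neil1 alone (3.57%) beside 8.64%. These shares describe letters in a window and no binding was measured.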

How the data were processed

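The 32 genes and the lists of other repair genes and of markers were chosen with earlier results of these data known.

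The 6 samples were labelled with Cy3, 1 array each. The deposited scanner values are linear intensity per spot, background-corrected by Feature Extraction 10.7.3.1 per the file headers, whereas the submitters' processing notes name 10.3.1.1, and the difference was not resolved. The authors also deposited log2 values for the whole series, centred per probe, as a table that served as an alternative. Its exact scaling and centring are not given in the sources used here.

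Outlier and control spots were removed. The processed signal was log-transformed (base 2), averaged over a probe's spots and set relative to the 75th percentile of its array. Probes well above background on at least 3 of 6 arrays were tested (26649 of 39429, or 67.6%), and 2 more could not be fitted. No gene spot was saturated. Wild type and knockout were placed by sample title and compared two-sided by limma 3.58.1 (lmFit, eBayes; R 4.3.3) with no replicate block. Tables were read with the R package data.table (version 1.17.8) and, for sequences, pandas 2.3.3 under Python 3.11.15. A gene's representative is its brightest tested probe by the mean of all arrays.

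Values are printed per array for genes whose representative had an unadjusted p below 0.05, and the 6 other repair genes with the smallest p are named. Ercc5, Ercc6, the dimmer Polq probe, the Ung probe and neighbours at shared starts were added after their values were seen. Probe positions and sequences are those of the scanner tables (mm9), which give no exon or UTR annotation. Starts and promoters come from RefSeq on GRCm38.p6, and no coordinate was converted between builds. The fit was tested on simulated data. The alternatives tried were another background correction, other scalings, other filters, the authors' table, other variance models, the replicate block, the mean over a gene's probes and leaving out each array. Slide as a block could not be fitted, since each slide holds 1 genotype.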

Additional observations from a re-analysis of the deposited data

How the results depend on the processing

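Of the 43 repair gene probes, 0 were called higher and 0 lower under every alternative run except array weights (1 lower, Xpa) and leaving out an array (0 to 3 higher, 0 to 1 lower). With an array left out, all called repair gene probes came from the fit without wild type replicate 2, which also had the lowest array weight (0.30). The other repair genes gave 1 lower call with arrays shifted to the median, 2 with array weights, and 0 to 1 higher and 0 to 2 lower with an array left out. The median over the 32 genes stayed negative: -0.15 with the median shift, -0.069 with quantile normalization, -0.14 with array weights, -0.028 as the mean over a gene's probes and -0.114 to -0.066 with an array left out. Of the 32 genes, 7 changed sign under at least 1 alternative (Lig1, Mgmt, Parp1, Polq, Prkdc, Xrcc1 and Xrcc4), none of them called.

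Over all probes, 33 higher and 91 lower calls became 0 and 0 under normexp, without a filter, with all 6 arrays above background, and with a trended robust prior. They became 54 and 177 with the median shift, 50 and 131 with quantile normalization, 33 and 87 in the authors' table, and 807 and 778 with array weights. Leaving out an array gave 0 to 1409 higher and 0 to 1148 lower (203 and 437 without wild type replicate 1, 1409 and 1148 without wild type replicate 2, 0 without any other). Zscan5b passed the threshold with array weights (-1.58, adjusted p = 0.0393 by limma) and without wild type replicate 2 (adjusted p = 0.0416), within -1.55 to -1.08 over the arrays left out, and it gave -0.59 under normexp (adjusted p = 0.108). The cause was not tested.

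With the replicate block, 0 repair gene probes and 0 of all probes were called in either direction. Deviations of same-numbered arrays correlated at 0.16, 0.23 and -0.14 across probes, and wild type replicate 3 correlated best with knockout replicate 1, so the numbers were not taken as pairs. Slide as a block was not run. Depth in the sense of reads does not apply: 3 arrays per group and the signal over background limit the precision.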
